A study of Homo sapiens with 8 samples.

Results

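Heat shock proteins and their partner chaperones form the subject here, as a set of 49 genes followed across parental, inhibitor-treated, CDK2-deleted and inhibitor-resistant HCT-116 cells, which were derived from a human colorectal carcinoma. The list of 49 symbols was drawn up with earlier results of these data known. Its probes are all those whose gene name in the scanner files is one of the symbols, whatever their values. These are 84 of the 50599 probes that are not controls. Of them 81 probes, from 48 genes, gave signal well above background on both replicates of 1 group or more and were tested, among 28677 probes that name 15317 genes in all. HSPA1A is the member whose only probe did not pass.

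RNA was profiled on 8 one-colour Agilent arrays, 2 biological replicates for each of 4 groups. WT cells are the untreated parental line. WT+NU6102 cells are the same line after 24 h in 20 µM NU6102, a purine inhibitor of CDK1 and CDK2. CDK2-/- cells are an untreated knockout line bought, like the parental line, from a supplier, and R50 cells descend from parental cells that grew out in 50 µM NU6102 from the start and were kept in it when RNA was taken. R50 therefore differs from WT+NU6102 in dose and in duration as well as in selection, and R50 and CDK2-/- are each represented by 1 line. All groups grew in the same medium and came to the arrays with RNA of like integrity.

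The WT and WT+NU6102 arrays lay on slide 2, the CDK2-/- and R50 arrays on slide 1. A comparison within a slide was therefore possible for WT+NU6102 with WT and for R50 with CDK2-/-. For the other 3 comparisons, slide and group cannot be told apart. R50, CDK2-/- and WT+NU6102 are each set against the same WT arrays, and the R50 arrays enter 3 comparisons, so the comparisons are not independent of one another. Of 58717 spots on an array, 32376 to 36206 were well above background and 0 were saturated. The CDK2 probe (chr12:56365789-56365848, hg19) fell by 0.77 on the log2 scale in CDK2-/- against WT cells (SE 0.04, limma adjusted p = 0.000268), with values of −1.56 and −1.51 against −0.76 and −0.76, and it stayed above background on all 8 arrays. The 6 epithelial markers examined, EPCAM, CDH1, KRT8, KRT18, KRT19 and CDX2, were above background on 8 of 8 arrays. Of the 6 leukocyte, fibroblast and endothelial markers, COL3A1 was above background on 0 arrays, PECAM1 on 1 and CD3E on 4, and PTPRC, COL1A1 and CDH5 on 8, with log2 signals from −3.67 to −1.61. Their part in the results was not tested. In bulk RNA, fewer cells that make a transcript and less transcript per cell cannot be told apart.

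Chaperones hold unfolded proteins, fold them or hand them on. HSP70 binds short exposed stretches under the control of J-domain proteins, which trigger its ATP hydrolysis, and of exchange factors such as the BAG proteins and HSP110, which release ADP. HSP90 takes over late folding steps, above all of kinases and steroid receptors, with co-chaperones that time its cycle, while the chaperonin TRiC encloses newly made actin, tubulin and other proteins. Heat shock factor HSF1 drives many of these genes under protein stress by binding inverted repeats of the unit GAA, and newly made kinases, cyclin-dependent kinases among them, are known clients of HSP90 and its partner CDC37.

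Values below are log2 processed signals less the 75th percentile of the array, so that 0 is that percentile and 1 unit is a doubling. A gene is represented by its brightest tested probe. A member is said to be higher or lower where limma's moderated test, fitted to all 8 arrays, gave a Benjamini-Hochberg adjusted p under 0.05 over the 28677 probes, and each p below is such a value. Probe positions are those of hg19 in the scanner files. Levels of different probes are not compared with one another.

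Acute NU6102 was accompanied by a broad rise of this set, of modest size. Of 48 tested members 33 (68.8%) were higher in WT+NU6102 than in WT cells, 3 were lower (HSPB1, HSPB8 and DNAJB2) and 12 did not pass the test. Of all 15317 genes 29.1% were called higher and 24.1% lower in the same comparison. The median log2 fold change of the members was 0.34, against 0.04 over all genes, and 41 of 48 members lay above 0. The members ranged from −0.71 to 0.92, so that 0 of them reached 2-fold, at an adjusted p or at an unadjusted p under 0.05, where 6.69% of all genes were called at that size. After quantile normalization the median of the members was 0.26.

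In CDK2-/- and R50 cells more members were lower than higher against WT. In CDK2-/- cells 6 members were higher than in WT, 13 (27.1%) lower and 29 not called, with a median of −0.08 against 0.02 over all genes, and 19.6% of all genes were called higher and 16.5% lower. In R50 cells 1 member was higher than in WT (HSPH1), 21 (43.8%) were lower and 26 were not called, with a median of −0.18 against −0.04 over all genes and backgrounds of 12.2% higher and 15.6% lower. No member reached 2-fold on its brightest probe in either comparison (0 at an unadjusted p under 0.05), where 5.03% and 2.74% of all genes did. A dim second probe of CCT3, described below, did in CDK2-/- cells. Counts of members called were less stable here than for acute NU6102. The 22 calls of R50 against WT became 2 when dim probes were kept in the correction, 4 without WT replicate 1, 5 without WT replicate 2, 5 without R50 replicate 1 and 9 without R50 replicate 2. The 19 calls of CDK2-/- against WT became 9 when dim probes were kept, 11 without WT replicate 1, 12 without CDK2-/- replicate 1 and 9 without CDK2-/- replicate 2.

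**Figure D1:**
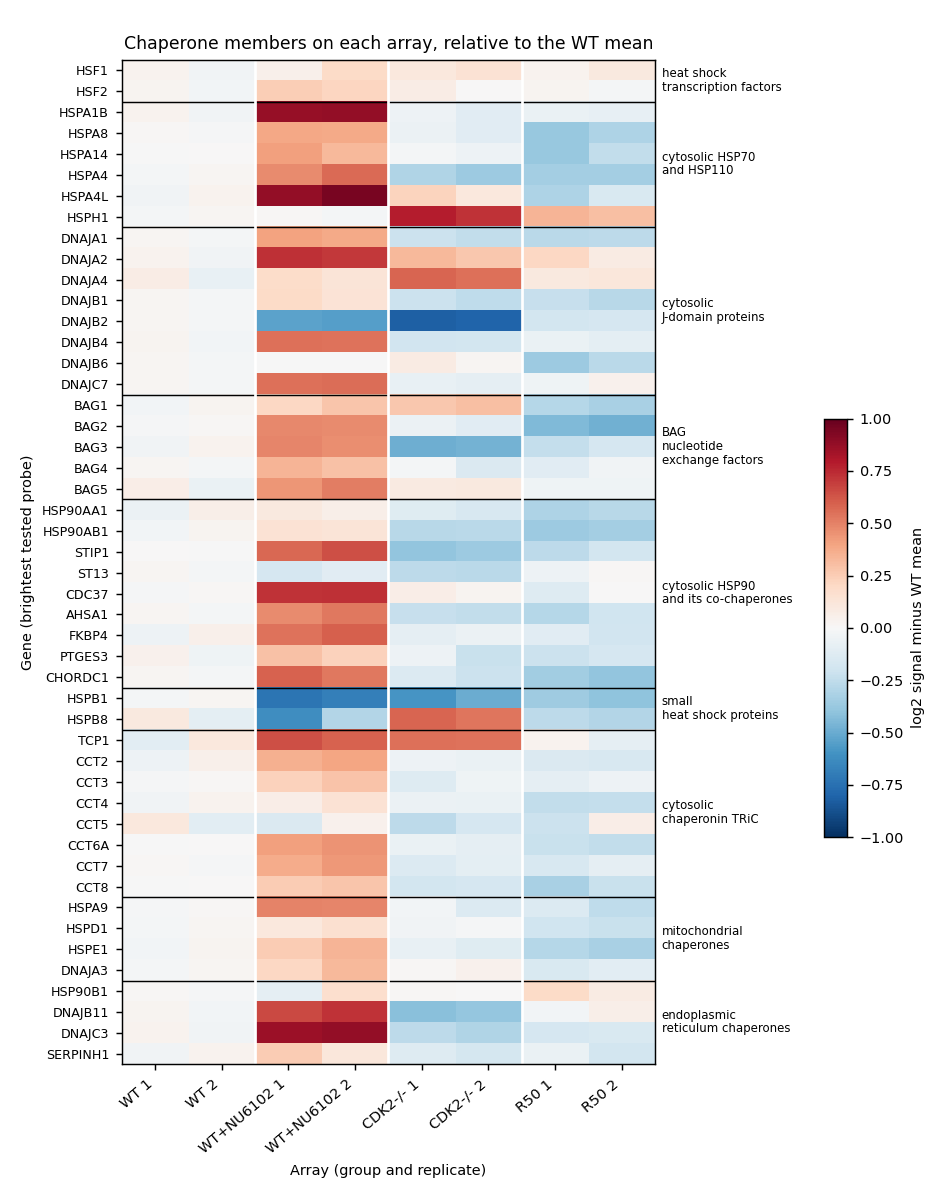
Normalized log2 signal of each of the 48 tested members on the 8 arrays, less the mean of the 2 WT arrays, with genes in rows by role and arrays in columns (red above the WT mean, blue below it). The WT+NU6102 columns are red for most rows, with DNAJB2, HSPB1 and HSPB8 blue, while the R50 columns are pale blue for most rows and HSPH1 is red in CDK2-/- and R50 cells.

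Of the 5 comparisons, R50 against WT+NU6102, in which both groups carried the inhibitor, had the most members called. In it 39 members were lower and 3 higher (HSPH1, DNAJB2 and HSPB1), beside backgrounds of 34.1% lower and 26.1% higher, with a median of −0.54 against −0.07 over all genes. On their brightest probes HSPA4L and DNAJC3, 2 of 48 members, were lower by at least 2-fold, where 3.4% of all genes were. Other probes were not counted, such as those of HSPA8 (group means −2.43 in R50 and −1.29 in WT+NU6102 cells) and CHORDC1 (0.65 and 1.83). In R50 against CDK2-/- cells, on 1 slide, 4 members were higher (DNAJB2, DNAJB11, BAG3 and ST13), 15 lower and 29 not called, with a median of −0.08 against −0.07 over all genes (−0.01 for the members after quantile normalization) and backgrounds of 16.9% higher and 24.3% lower. No member reached 2-fold there on its brightest probe (0 at an unadjusted p under 0.05), where 5.43% of all genes did. Another probe of DNAJB6, described below, did. Other probes were not counted, such as a dim one of CCT3 (group means −4.31 in R50 and −3.15 in CDK2-/- cells). Those 19 calls became 9 when dim probes were kept, 9 without CDK2-/- replicate 1, 12 without CDK2-/- replicate 2, 11 without R50 replicate 1, 12 without R50 replicate 2 and 10 when slide 1 was fitted alone. Across the 4 groups 23 of 48 members differed in the moderated F-test at an adjusted p under 0.001, the threshold of the study's methods, as did 27.6% of all genes. This count was 0 when dim probes were kept, 0 to 2 with any 1 array left out and 42 with a prior variance that follows intensity.

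**Figure D2:**
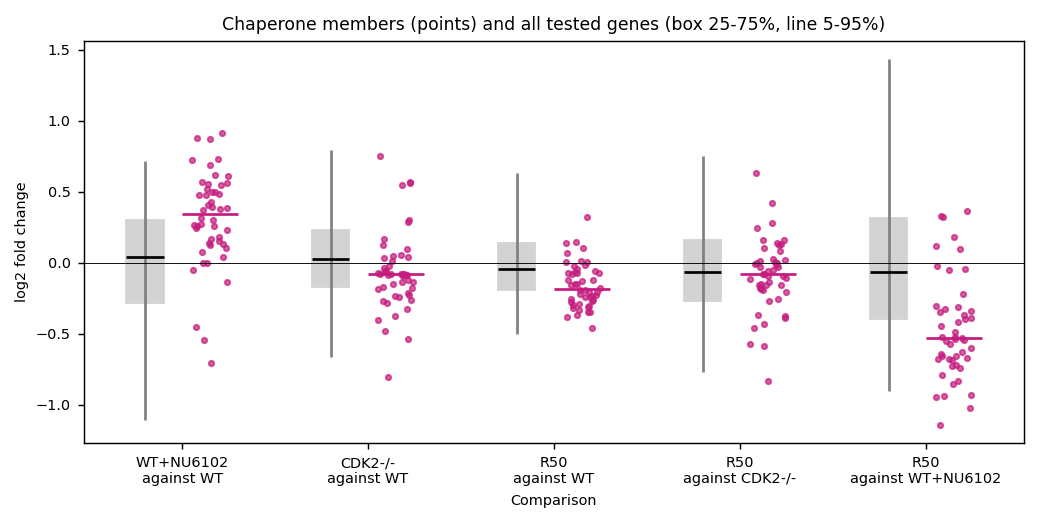
Log2 fold changes of the 48 members (points, with their median as a line) beside all 15317 genes (box from the 25th to the 75th percentile, line from the 5th to the 95th, median in black) in the 5 comparisons. The members sit above the median of all genes for WT+NU6102 against WT, at 0.34, and below it for R50 against WT+NU6102, at −0.54.

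The promoters of these genes were examined because the HSF1 unit is well defined in sequence. RefSeq windows of GRCh38.p14, from 250 bases before to 50 after each start, were at hand for 43 members (62 windows). The letters GAANNTTCNNGAA or TTCNNGAANNTTC, 3 inverted units read on both strands, occurred in 8 of 43 members (CHORDC1, DNAJA1, DNAJB6, HSP90AA1, HSP90AB1, HSPA8, HSPD1 and SERPINH1), against 0.608% of 27305 genes and 0.49% of 35116 windows. The shorter GAANNTTC or TTCNNGAA, which is part of the longer pattern, occurred in 22 of 43 members against 16.2% of genes. The stretches below show such matches in members that were higher with acute NU6102 (CHORDC1, HSPA8 and HSPA1B), that did not pass the test (HSP90AA1, DNAJB6 and SERPINH1) or that were not tested (HSPA1A), 5′ to 3′ on the strand of the gene, with every match to either pattern in capitals. That of CHORDC1 holds an unbroken run of 5 units and a separate run of 2, that of HSP90AA1 a run of 3 and a run of 2, and that of HSPA8 has 2 runs of 3. Those of DNAJB6 and SERPINH1 hold 1 run of 3 units, and those of HSPA1A and HSPA1B 1 run of 2.
CHORDC1 (chr11:90223050-90223149, minus strand): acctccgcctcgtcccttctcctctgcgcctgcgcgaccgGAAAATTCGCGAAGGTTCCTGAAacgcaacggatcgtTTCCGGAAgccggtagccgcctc
HSPA8 (chr11:123062139-123062386, minus strand): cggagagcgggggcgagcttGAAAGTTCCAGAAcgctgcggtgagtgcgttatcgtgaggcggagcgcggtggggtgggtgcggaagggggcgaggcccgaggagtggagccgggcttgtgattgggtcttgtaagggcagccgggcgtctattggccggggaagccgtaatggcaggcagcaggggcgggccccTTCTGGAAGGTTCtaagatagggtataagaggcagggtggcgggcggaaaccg
HSP90AA1 (chr14:102087080-102087172, minus strand): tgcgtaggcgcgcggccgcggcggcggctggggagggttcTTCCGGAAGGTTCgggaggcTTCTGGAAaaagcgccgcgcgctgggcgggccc
DNAJB6 (chr7:157336833-157336925, plus strand): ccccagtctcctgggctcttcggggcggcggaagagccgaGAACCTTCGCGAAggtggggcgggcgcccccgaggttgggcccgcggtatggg
SERPINH1 (chr11:75562137-75562229, plus strand): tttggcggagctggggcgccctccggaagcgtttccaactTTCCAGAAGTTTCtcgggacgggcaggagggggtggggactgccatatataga
HSPA1A (chr6:31815397-31815484, plus strand): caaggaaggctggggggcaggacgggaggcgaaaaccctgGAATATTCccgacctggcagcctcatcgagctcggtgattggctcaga
HSPA1B (chr6:31827593-31827680, plus strand): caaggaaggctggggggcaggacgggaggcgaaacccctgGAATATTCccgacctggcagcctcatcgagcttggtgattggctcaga

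Of the 8 members with the longer pattern 3 were higher in WT+NU6102 than in WT cells (CHORDC1, HSPA8 and DNAJA1) with a median log2 fold change of 0.16, while 26 of the 34 tested members whose windows lack it were higher and 3 lower, with a median of 0.39. In R50 against WT cells 7 of the 8 were lower (all but SERPINH1), with a median of −0.31, and of the 34 others 12 were lower and 1 higher, with a median of −0.16. CDK2-/- cells had 2 of the 8 lower than WT (HSP90AB1 and DNAJA1) and 10 of the 34 lower and 6 higher. Against WT, 29.1% of all genes were called higher and 24.1% lower in WT+NU6102 cells. The shares were 12.2% higher and 15.6% lower in R50 cells, and 19.6% and 16.5% in CDK2-/- cells. The difference between members with and without the longer pattern was not tested. A match in letters is no proof of binding, and the lack of an exact match in a window is no proof that no element is present. HSPA1B, among those without the longer pattern, holds the shorter one.

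Of the factors themselves, HSF1, the main activator of the heat shock response, passed the test in no comparison. Its probe (chr8:145538270-145538329) read 5.96 and 5.89 in WT, 5.98 and 6.12 in WT+NU6102, 6.03 and 6.07 in CDK2-/- and 5.96 and 6.03 in R50 cells. All 8 arrays lay between 5.89 and 6.12, and none of its 3 probes passed in any of the 5 comparisons. For WT+NU6102 against WT the change of 0.12 had a 95% interval from −0.05 to 0.29 (adjusted p = 0.20). HSF1 is known to be regulated mainly on the protein, which was not analysed here.

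HSF2, a related factor that can pair with HSF1, read 1.58 and 1.52 in WT, 1.79 and 1.76 in WT+NU6102, 1.62 and 1.55 in CDK2-/- and 1.58 and 1.53 in R50 cells (chr6:122753899-122753958). The treated arrays stood above the other 6. The rise with acute NU6102 was 0.23 (SE 0.05, adjusted p = 0.017) and the difference of R50 from WT+NU6102 was −0.22 (SE 0.05, adjusted p = 0.016). Both calls were lost after quantile normalization (0.13 and −0.10, adjusted p = 0.11 and 0.19), with dim probes kept, and without WT+NU6102 replicate 1 (adjusted p = 0.077 and 0.074) or replicate 2 (adjusted p = 0.058 and 0.053). The first was lost without WT replicate 2 (adjusted p = 0.083) and the second without R50 replicate 2 (adjusted p = 0.072).

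Among the cytosolic HSP70 and HSP110 proteins, 5 of 6 tested genes rose with acute NU6102, beside 29.1% of all genes, the exception being HSPH1. HSPA1B encodes the stress-inducible HSP70. Its probe (chr6:31797870-31797929) read 5.64 and 5.57 in WT, 6.47 and 6.49 in WT+NU6102, 5.56 and 5.49 in CDK2-/- and 5.54 and 5.53 in R50 cells. Both treated arrays were clear of the other 6, which lay between 5.49 and 5.64. The rise was 1.83-fold (log2 0.87, SE 0.05, adjusted p = 0.000205), and R50 cells, although kept in more NU6102, lay 0.95 below WT+NU6102 cells (SE 0.05, adjusted p = 7.8e-05). In CDK2-/- and R50 cells the change against WT was −0.08 and −0.07 and passed no test (adjusted p = 0.27 and 0.35).

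HSPA1A, the neighbouring and near-identical copy, behaved differently on its probe, but at the level of background. That probe read −7.03 and −7.10 in WT, −6.66 and −6.69 in WT+NU6102, −6.17 and −5.81 in CDK2-/- and −4.76 and −4.50 in R50 cells. Of its 10 spots per array, 0 were well above background on the WT, WT+NU6102 and CDK2-/- arrays, and 4 and 6 on the R50 arrays. The probe was therefore not tested and no fold is given. When dim probes were kept it passed in each comparison but WT+NU6102 against WT, and R50 was higher than WT at an adjusted p of 0.0039. Whether transcripts of each copy bind the probe of the other was not tested, so the division of the signal between HSPA1A and HSPA1B is uncertain.

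HSPA4L, an HSP110 relative that acts as an exchange factor for HSP70, had the largest rise with acute NU6102 among the brightest probes of the 48 tested members. Its values (chr4:128754250-128754309) were −0.25 and −0.18 in WT, 0.66 and 0.73 in WT+NU6102, 0.01 and −0.11 in CDK2-/- and −0.52 and −0.37 in R50 cells. Treated arrays were the highest and R50 arrays the lowest, with no overlap between groups. The rise with acute NU6102 was 1.89-fold (log2 0.92, SE 0.08, adjusted p = 0.000523). R50 cells lay 1.15 below WT+NU6102 cells on the log2 scale, with an SE of 0.08 and an adjusted p of 0.000149, in the largest difference among the members' brightest probes in the 5 comparisons. R50 was also lower than CDK2-/- by 0.39 (adjusted p = 0.013), a call lost without CDK2-/- replicate 1 (adjusted p = 0.067), without R50 replicate 1 (adjusted p = 0.054) and with dim probes kept. The difference of R50 from WT, −0.23, did not pass (adjusted p = 0.088).

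HSPA4, another HSP110 relative, read 5.98 and 6.03 in WT, 6.48 and 6.57 in WT+NU6102, 5.71 and 5.64 in CDK2-/- and 5.67 and 5.67 in R50 cells (chr5:132440067-132440126). It lay above WT with acute NU6102, by 0.52 (SE 0.05, adjusted p = 0.00105), and below WT in both slide 1 groups, by 0.33 in CDK2-/- cells (SE 0.05, adjusted p = 0.0084) and 0.34 in R50 cells (SE 0.05, adjusted p = 0.012). These last calls were fragile. That of CDK2-/- was lost without CDK2-/- replicate 2 (adjusted p = 0.052), and that of R50 without any 1 of WT replicate 1 (0.053), WT replicate 2 (0.065), R50 replicate 1 (0.056) and R50 replicate 2 (0.052), all as adjusted p. R50 and CDK2-/- cells, which share a slide, differed by −0.01 (95% interval −0.14 to 0.13).

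HSPA8, the constitutive HSP70, read 5.64 and 5.62 in WT, 6.01 and 6.01 in WT+NU6102, 5.57 and 5.51 in CDK2-/- and 5.25 and 5.32 in R50 cells (chr11:122929478-122929537). R50 arrays were the lowest and treated arrays the highest. The rise with acute NU6102 was 0.38 (SE 0.05, adjusted p = 0.0020). R50 lay 0.35 below WT (SE 0.05, adjusted p = 0.0084; 0.051 without WT replicate 1) and 0.26 below CDK2-/- within the slide (SE 0.05, adjusted p = 0.012). The latter call was lost without CDK2-/- replicate 1 (adjusted p = 0.068) or R50 replicate 1 (adjusted p = 0.058). The other 2 probes named HSPA8 moved the same way in those comparisons, although 1 of them passed the test neither for WT+NU6102 nor for R50 against WT (adjusted p = 0.077 and 0.062).

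HSPH1, the classical HSP110, was the exception among the tested genes of the family, and the 1 gene of 48 called higher in R50 than in WT cells on its brightest probe. It read 4.28 and 4.31 in WT, 4.30 and 4.27 in WT+NU6102, 5.07 and 5.02 in CDK2-/- and 4.63 and 4.59 in R50 cells (chr13:31710796-31710855). The WT and WT+NU6102 arrays overlapped, and the CDK2-/- arrays were the highest. Against WT it was 1.69-fold higher in CDK2-/- cells (log2 0.75, SE 0.05, adjusted p = 0.000377) and 1.25-fold higher in R50 cells (log2 0.32, SE 0.05, adjusted p = 0.010; 0.058 without WT replicate 1 and 0.052 without R50 replicate 1, and not called with dim probes kept). R50 was lower than CDK2-/- by 0.43 (SE 0.05, adjusted p = 0.0019), within the slide. With acute NU6102 the change was 0.00 on this probe, and 0.21 on its second probe, which passed the test. HSPA14, which works with J-domain partners at the ribosome, rose by 0.37 with acute NU6102 (adjusted p = 0.0059) and lay 0.31 below WT in R50 cells (adjusted p = 0.023).

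**Figure D3:**
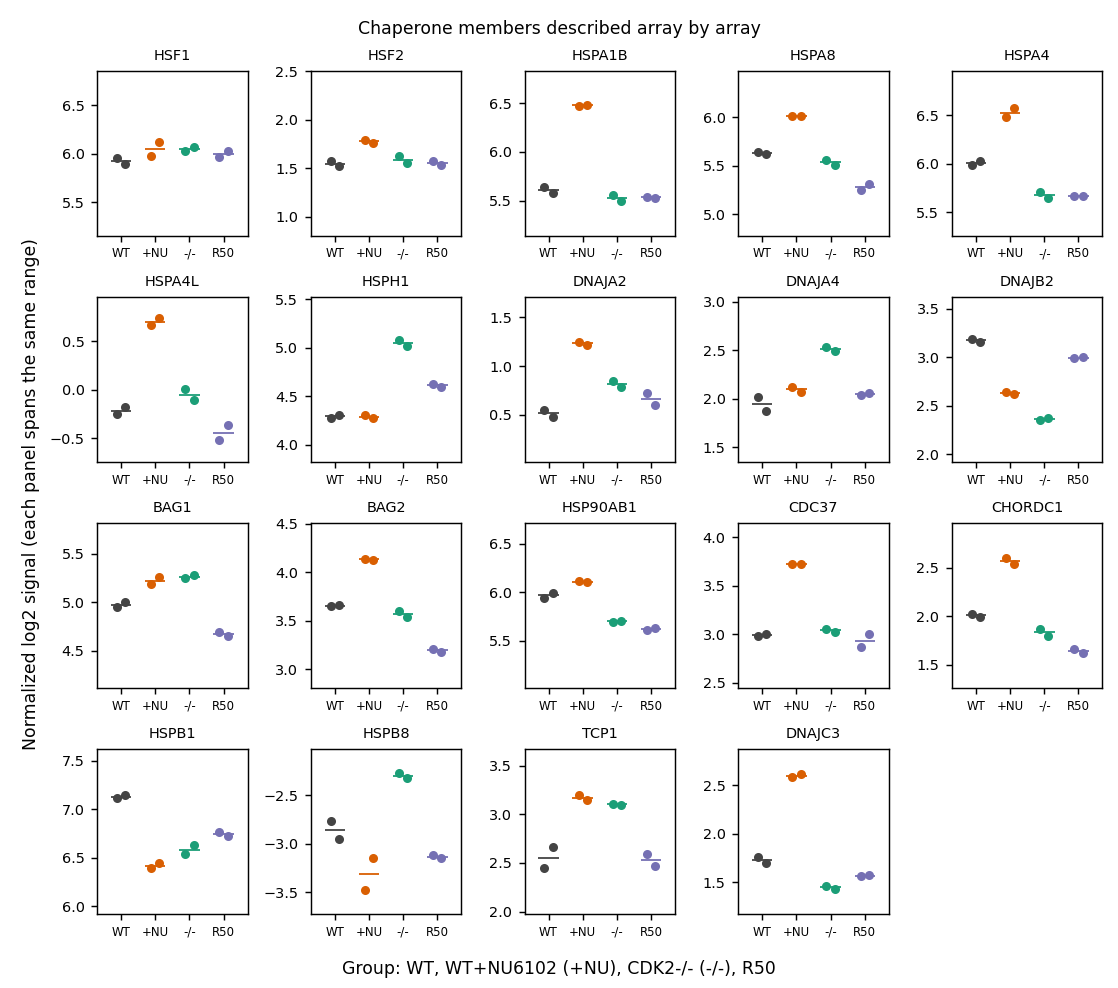
Normalized log2 signal on each of the 8 arrays (points) with group means (lines) for the 19 members described array by array, each panel spanning the same range. HSPA1B, HSPA4L and DNAJC3 stand out in WT+NU6102 cells, HSPH1 and DNAJA4 in CDK2-/- cells, and HSPB1 and DNAJB2 lie below WT in WT+NU6102 and CDK2-/- cells.

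The cytosolic J-domain proteins deliver substrates to HSP70. With acute NU6102 5 of 8 rose and DNAJB2 fell, where 29.1% of all genes were called higher and 24.1% lower. In CDK2-/- cells 2 were higher than WT and 4 lower, beside 19.6% and 16.5% of all genes. In R50 cells 0 were higher and 4 lower, beside 12.2% and 15.6%. Whether groups of so few genes differ from these shares was not tested. DNAJA2, a general HSP70 partner, read 0.55 and 0.48 in WT, 1.25 and 1.22 in WT+NU6102, 0.84 and 0.79 in CDK2-/- and 0.72 and 0.59 in R50 cells (chr16:46989293-46989352), with WT lowest and no overlap among the groups. It rose by 0.72 with acute NU6102 (SE 0.06, adjusted p = 0.000571) and was 0.30 above WT in CDK2-/- cells (SE 0.06, adjusted p = 0.018). Without any 1 array of WT or CDK2-/- the last adjusted p was 0.053 to 0.088. The 0.14 of R50 against WT did not pass (adjusted p = 0.16).

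DNAJA4, another HSP70 partner of the same class, was higher than WT in CDK2-/- cells and did not pass in WT+NU6102 (0.15, adjusted p = 0.10) or R50 cells (0.10, adjusted p = 0.29). Its values were 2.02 and 1.87 in WT, 2.13 and 2.07 in WT+NU6102, 2.53 and 2.50 in CDK2-/- and 2.04 and 2.06 in R50 cells (chr15:78574350-78574409). CDK2-/- cells were 1.48-fold above WT (log2 0.57, SE 0.06, adjusted p = 0.0023). Tested directly within the slide, R50 lay 0.46 below CDK2-/- (SE 0.06, adjusted p = 0.0039).

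DNAJB2, a J-domain protein with ubiquitin-binding motifs that steers clients to the proteasome, had the largest fall against WT among the members' brightest probes. It read 3.19 and 3.15 in WT, 2.64 and 2.62 in WT+NU6102, 2.35 and 2.37 in CDK2-/- and 2.99 and 3.0 in R50 cells (chr2:220151526-220151585). The groups did not overlap and ran from WT down through R50 and WT+NU6102 to CDK2-/-. The log2 fold change was −0.81 in CDK2-/- (SE 0.04, adjusted p = 0.000235) and −0.54 in WT+NU6102 cells (SE 0.04, adjusted p = 0.000468). R50 was 0.63 above CDK2-/- within the slide (SE 0.04, adjusted p = 0.000419) and 0.36 above WT+NU6102 (SE 0.04, adjusted p = 0.00109). The small difference of R50 from WT, −0.18 (adjusted p = 0.039), was lost in 11 of 15 alternatives. Among these were leaving out any 1 of the 8 arrays, quantile normalization and a replicate block (adjusted p = 0.062). On the second probe that difference was −0.08 and not called. Both probes agreed in call elsewhere.

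Of the other J-domain members, DNAJB1, the standard inducible partner of HSP70, rose by only 0.16 with acute NU6102 (adjusted p = 0.042), beside 0.87 for HSPA1B. It was lower than WT by 0.24 in CDK2-/- (adjusted p = 0.018) and by 0.25 in R50 cells (adjusted p = 0.021). DNAJA1 had the same pattern with 0.39, −0.23 and −0.26 in that order, all called. DNAJB4 and DNAJC7 rose by 0.55 and 0.56 with acute NU6102, and the latter did not pass in CDK2-/- or R50 cells (−0.08 and 0.00).

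DNAJB6, which suppresses aggregation of polyglutamine proteins, gave opposite results on probes for its different transcripts. On the brightest probe (chr7:157178663-157178722) and a second beside it, both made for the transcript NM_005494, the change with acute NU6102 did not pass (0.00 and −0.09), and R50 was lower than WT by 0.32 and 0.26. The third probe (chr7:157209570-157209629), made for the transcript NM_058246, was 0.41 higher than WT in both WT+NU6102 cells (adjusted p = 0.0032) and R50 cells (adjusted p = 0.0088) and 0.93 lower in CDK2-/- cells (adjusted p = 0.000372). R50 lay 1.35 above CDK2-/- on that probe (SE 0.06, adjusted p = 0.000113), within the slide, and 0.37 below it on the brightest. No single direction can be given for the gene.

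All 5 BAG exchange factors rose with acute NU6102, by 0.24 to 0.48, and 3 of 5 were lower in R50 than in WT cells. The shares of all genes were 29.1% higher with acute NU6102 and 15.6% lower in R50 cells. BAG2, which also restrains the ubiquitin ligase CHIP, read 3.65 and 3.67 in WT, 4.14 and 4.13 in WT+NU6102, 3.60 and 3.54 in CDK2-/- and 3.21 and 3.18 in R50 cells (chr6:57049439-57049498). It was highest in the treated cells, lowest in R50, and had no overlap between groups. The rise with acute NU6102 was 0.48 (SE 0.05, adjusted p = 0.000809), and the difference of R50 from WT, −0.46 (SE 0.05, adjusted p = 0.0030), was the largest fall in that comparison on a brightest probe. R50 was also 0.38 below CDK2-/- (SE 0.05, adjusted p = 0.0027) and 0.94 below WT+NU6102 (SE 0.05, adjusted p = 6.6e-05).

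BAG1, which links HSP70 to the proteasome, read 4.95 and 5.0 in WT, 5.18 and 5.25 in WT+NU6102, 5.25 and 5.28 in CDK2-/- and 4.69 and 4.65 in R50 cells (chr9:33255065-33255124). R50 stood alone below WT. Within the slide R50 was 0.59 lower than CDK2-/- (SE 0.05, adjusted p = 0.000890), and this difference passed on all 3 of its probes, as did those of the 3 groups against WT. Against WT the changes on the brightest were 0.24 (adjusted p = 0.012), 0.29 (adjusted p = 0.011) and −0.30 (adjusted p = 0.014) for WT+NU6102, CDK2-/- and R50. All 3 were lost with dim probes kept and without WT replicate 1 (adjusted p = 0.064, 0.061 and 0.052). The first fell to 0.11 after quantile normalization (adjusted p = 0.092). It was also lost without WT+NU6102 replicate 2 (0.067), the second without CDK2-/- replicate 2 (0.063), and the third without WT replicate 2 (0.072), R50 replicate 1 (0.053) or R50 replicate 2 (0.062), all as adjusted p.

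BAG3, an inducible partner of small heat shock proteins in selective autophagy, rose by 0.48 with acute NU6102 (adjusted p = 0.00115), was 0.48 below WT in CDK2-/- (adjusted p = 0.00198) and 0.21 below it in R50 cells (adjusted p = 0.042). R50 was 0.28 above CDK2-/- (adjusted p = 0.011), opposite in sign to BAG1 and BAG2. BAG4 and BAG5 rose by 0.32 and 0.48 with acute NU6102 and passed in no other comparison with WT. The second probe of BAG4 gave 0.08 with acute NU6102 and was not called.

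In the HSP90 group, 6 of 7 co-chaperones rose with acute NU6102, by 0.26 to 0.73, the exception being ST13 (−0.14, adjusted p = 0.072). The share of all genes called higher there was 29.1%. HSP90AA1, the inducible form of the chaperone, was not called (0.08, adjusted p = 0.33). HSP90AB1, the constitutive form, narrowly missed the threshold (0.14, adjusted p = 0.0504), and its 95% interval, 0.03 to 0.25, overlapped that of the co-chaperone PTGES3, 0.07 to 0.45. The difference between the chaperone and its partners was not tested. HSP90AB1 read 5.94 and 5.99 in WT, 6.11 and 6.10 in WT+NU6102, 5.69 and 5.70 in CDK2-/- and 5.61 and 5.63 in R50 cells (chr6:44219983-44220819, a probe across an exon junction by its span). Against WT it was lower by 0.27 in CDK2-/- (SE 0.04, adjusted p = 0.0083) and by 0.35 in R50 cells (SE 0.04, adjusted p = 0.0062), and R50 and CDK2-/- differed by −0.08 (95% interval −0.19 to 0.03). HSP90AA1 fell below WT in R50 cells by 0.29 on its brightest probe (adjusted p = 0.021), and by 0.51 and 0.45 on its other 2. Those 2 were also lower in CDK2-/- cells, by 0.30 and 0.36, where the brightest gave −0.14 (adjusted p = 0.13).

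CDC37, the adaptor that brings kinases to HSP90, had the largest rise among the brightest probes of the co-chaperones. It read 2.99 and 3.0 in WT, 3.72 and 3.72 in WT+NU6102, 3.06 and 3.02 in CDK2-/- and 2.86 and 3.0 in R50 cells (chr19:10505904-10505963). The treated arrays stood apart and the WT and R50 arrays overlapped. The rise was 1.66-fold (log2 0.73, SE 0.06, adjusted p = 0.000474), and R50 lay 0.79 below WT+NU6102 cells (SE 0.06, adjusted p = 0.000203). CDK2-/- and R50 cells differed from WT by 0.05 and −0.06 (adjusted p = 0.61 and 0.50).

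CHORDC1, an HSP90 partner that is itself heat-inducible, read 2.02 and 1.99 in WT, 2.60 and 2.54 in WT+NU6102, 1.87 and 1.79 in CDK2-/- and 1.66 and 1.62 in R50 cells (chr11:89935045-89935104). It rose by 0.56 with acute NU6102 (SE 0.05, adjusted p = 0.000801), and R50 was lower than WT by 0.37 (SE 0.05, adjusted p = 0.0091; 0.054 without WT replicate 1) and lower than WT+NU6102 by 0.93 (SE 0.05, adjusted p = 0.0001). The −0.19 of R50 against CDK2-/- (adjusted p = 0.041) was lost in 12 of 15 alternatives, with values from −0.23 to −0.15 over the 15. Among these 12 were leaving out any 1 of the 8 arrays, normexp background correction and quantile normalization. Keeping dim probes and using the authors' values (adjusted p = 0.060) were the others. Its promoter stretch, shown above, holds overlapping matches to the 3-unit pattern, as the longer run of capitals shows.

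STIP1 bridges HSP70 and HSP90, and AHSA1 stimulates the ATPase of HSP90. Both rose with acute NU6102 (0.61 and 0.50). Both were lower than WT in CDK2-/- (−0.38 and −0.24) and R50 cells (−0.22 and −0.24), each past the test. In R50 cells the adjusted p was 0.039 for STIP1 and 0.028 for AHSA1. Neither gene was followed singly through the alternatives. FKBP4 and PTGES3, both partners in steroid receptor folding, rose by 0.57 and 0.26 and did not pass in CDK2-/- or R50 cells. ST13, an HSP70-stabilizing partner, was lower in CDK2-/- than in WT cells by 0.27 (adjusted p = 0.012), and R50 was 0.25 above CDK2-/- (adjusted p = 0.014). Of its 7 tested probes, 1 was lower with acute NU6102 (−0.33, adjusted p = 0.0042) and the others were not called.

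**Figure D4:**
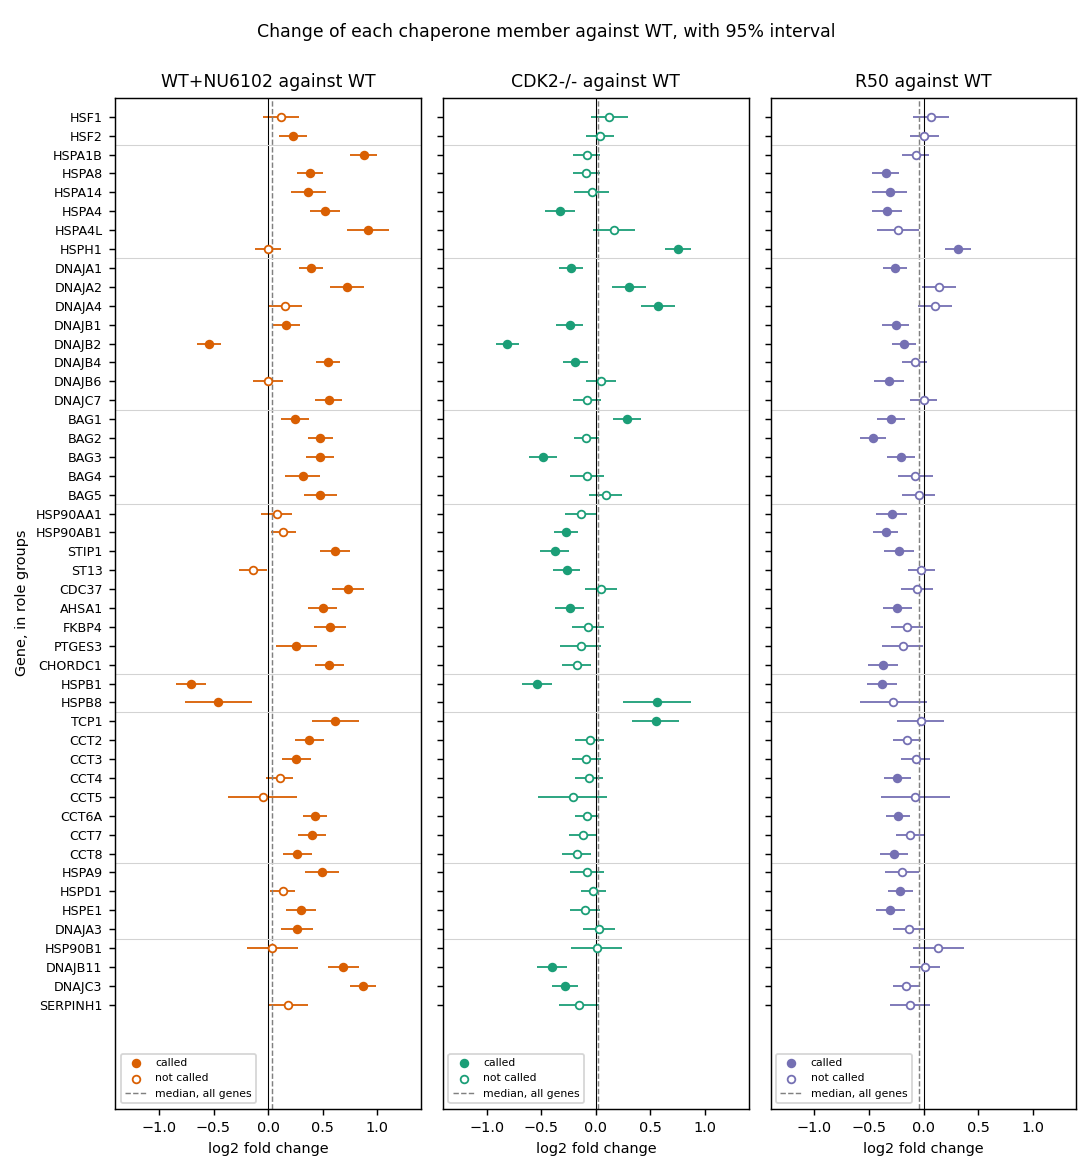
Log2 fold change of each of the 48 tested members against WT (points, filled where called at an adjusted p under 0.05) with its 95% interval, in 3 panels for WT+NU6102, CDK2-/- and R50 cells, with the median of all genes dashed. Filled points lie mostly right of 0 for WT+NU6102 (33 of 36) and left of 0 for R50 (21 of 22), and HSP90AA1 and HSP90AB1 are open in the first panel.

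Both small heat shock proteins, which hold unfolding proteins without ATP, were lower with acute NU6102, where 33 of the 36 members called were higher. The call of HSPB8, however, was lost in 10 of 15 alternatives, and 24.1% of all genes were called lower with acute NU6102. HSPB1, or HSP27, read 7.11 and 7.14 in WT, 6.39 and 6.44 in WT+NU6102, 6.54 and 6.63 in CDK2-/- and 6.77 and 6.72 in R50 cells (chr7:75933451-75933510). WT arrays were above all others. The fall was 0.71 with acute NU6102, to 0.612 of the WT signal (SE 0.05, adjusted p = 0.000428), 0.54 in CDK2-/- (SE 0.05, adjusted p = 0.0016) and 0.38 in R50 cells (SE 0.05, adjusted p = 0.0087; 0.051 without WT replicate 2). R50 lay 0.33 above WT+NU6102 cells (SE 0.05, adjusted p = 0.0041). Its second probe gave the same calls, and the third passed for WT+NU6102 but not for CDK2-/- (−0.21) or R50 against WT (−0.28).

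HSPB8, the partner of BAG3, was dim and less certain. It read −2.76 and −2.96 in WT, −3.48 and −3.15 in WT+NU6102, −2.27 and −2.33 in CDK2-/- and −3.12 and −3.15 in R50 cells (chr12:119617464-119624868, across a junction by its span). CDK2-/- arrays were the highest. Within the slide R50 was lower than CDK2-/-, with a difference of −0.83 (SE 0.12, adjusted p = 0.0050) that became −0.44 after normexp background correction (adjusted p = 0.014). The rise in CDK2-/- against WT, 0.56 (adjusted p = 0.021), became 0.34 with normexp (adjusted p = 0.038) and was lost with dim probes kept and without WT replicate 2, CDK2-/- replicate 1 or CDK2-/- replicate 2 (adjusted p = 0.097, 0.092 and 0.078). The fall with acute NU6102, −0.46 (adjusted p = 0.029), became −0.17 (adjusted p = 0.23) after normexp background correction. It was also lost without WT replicate 1 (−0.36, adjusted p = 0.13), WT+NU6102 replicate 1 (−0.29, adjusted p = 0.083) or any 1 array of CDK2-/- or R50 (adjusted p = 0.051 to 0.053).

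Of the 8 subunits of the chaperonin TRiC, 6 rose with acute NU6102, 1 was higher in CDK2-/- and 3 were lower in R50 than in WT cells. The matching shares of all genes were 29.1%, 19.6% and 15.6%. TCP1, subunit alpha, read 2.45 and 2.66 in WT, 3.20 and 3.15 in WT+NU6102, 3.11 and 3.10 in CDK2-/- and 2.59 and 2.47 in R50 cells (chr6:160199558-160199617). WT and R50 arrays overlapped, and both other groups lay above them. The changes against WT were 0.62 with acute NU6102 (SE 0.09, adjusted p = 0.0028) and 0.55 in CDK2-/- cells (SE 0.09, adjusted p = 0.0073). The second probe of TCP1 gave 0.56 with acute NU6102 (adjusted p = 0.00048) but −0.13 in CDK2-/- cells (adjusted p = 0.093), so the rise in CDK2-/- cells belongs to the brightest probe and to the dim remaining one (0.60, adjusted p = 0.011), which is made for the transcript ENST00000546204.

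The subunits CCT2, CCT3, CCT6A, CCT7 and CCT8 rose by 0.26 to 0.43 with acute NU6102. CCT4, CCT6A and CCT8 lay 0.23 to 0.27 below WT in R50 cells. CCT4 gave 0.11 with acute NU6102 and was not called (adjusted p = 0.15), although its second probe was, at 0.20. CCT5 was measured by 1 dim probe, at −2.92 to −2.56 over the 8 arrays, with an SE of 0.13, and passed in none of the 5 comparisons. A dim second probe of CCT3, made for ENST00000368256, was 1.03 above WT in CDK2-/- cells (adjusted p = 0.0024), where the brightest gave −0.09 (adjusted p = 0.27).

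**Figure D5:**
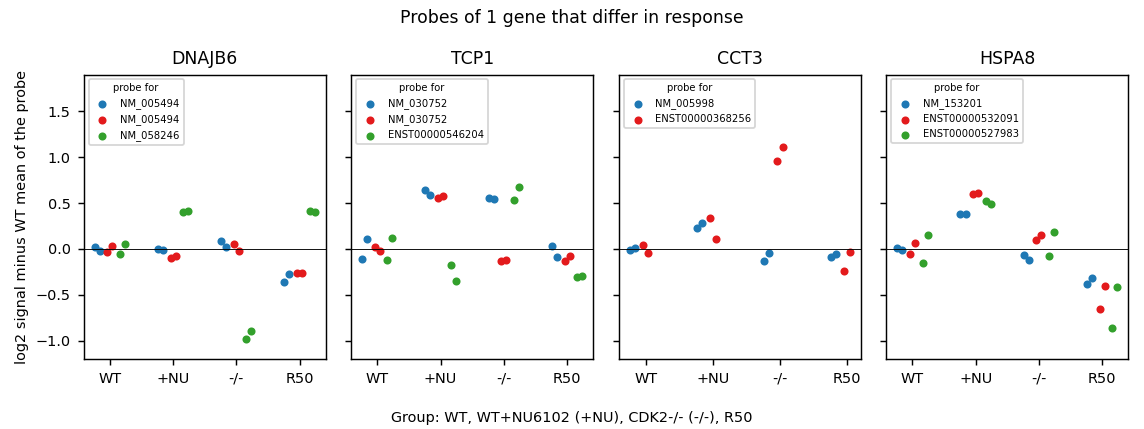
Log2 signal of each tested probe of DNAJB6, TCP1, CCT3 and HSPA8 on the 8 arrays, less that probe's own WT mean. Each probe of a gene has its own colour and is labelled with the transcript it was made for, which probes of DNAJB6 and of TCP1 can share. In DNAJB6, TCP1 and CCT3 probes of the same gene part in CDK2-/- cells, while the 3 HSPA8 probes are all highest in WT+NU6102 and lowest in R50 cells.

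Of the 4 mitochondrial members 3 rose with acute NU6102, where 29.1% of all genes were called higher. HSPA9, the HSP70 of the matrix, rose by 0.49 (adjusted p = 0.0021), DNAJA3 by 0.27 and HSPE1, the cap of the HSP60 chaperonin, by 0.30, while HSPD1, HSP60 itself, gave 0.13 (adjusted p = 0.067). HSPD1 and HSPE1, whose genes lie head to head, lay below WT in R50 cells by 0.21 (adjusted p = 0.029) and 0.30 (adjusted p = 0.016), and in CDK2-/- cells 0 of the 4 were called. All 4 were lower in R50 than in WT+NU6102 cells, as were 34.1% of all genes.

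Of the 4 members of the endoplasmic reticulum, DNAJC3 and DNAJB11 rose with acute NU6102, and HSP90B1 and SERPINH1 did not pass. The share of all genes called higher was 29.1%. DNAJC3, a J-domain protein that also inhibits eIF2α kinases, read 1.76 and 1.70 in WT, 2.58 and 2.61 in WT+NU6102, 1.47 and 1.43 in CDK2-/- and 1.56 and 1.57 in R50 cells (chr13:96443238-96443297). Both treated arrays were far above the other 6. It rose 1.82-fold with acute NU6102 (log2 0.87, SE 0.05, adjusted p = 0.000191), and R50 lay 1.03 below WT+NU6102 (SE 0.05, adjusted p = 6e-05). CDK2-/- cells were 0.28 below WT (SE 0.05, adjusted p = 0.0092; 0.052 without WT replicate 1 and 0.056 without CDK2-/- replicate 2). DNAJB11, the J-domain partner of BiP, rose by 0.69 with acute NU6102 (adjusted p = 0.000473), was 0.40 below WT in CDK2-/- cells (adjusted p = 0.0046) and did not differ beyond error in R50 cells (0.01, 95% interval −0.12 to 0.15). HSP90B1, the HSP90 of the compartment, passed in none of the 5 comparisons on its brightest probe, and SERPINH1, the collagen chaperone, gave 0.18 with acute NU6102 (adjusted p = 0.10) and was lower in R50 than in WT+NU6102 cells by 0.31 (adjusted p = 0.017).

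Other genes of the chaperone system, 68 listed and 63 tested, gave a like picture with acute NU6102. Of them 32 (50.8%) were higher than WT and 5 (7.94%) lower, with a median log2 fold change of 0.22. Of all genes 29.1% were higher and 24.1% lower. In CDK2-/- cells 10 (15.9%) were higher and 10 (15.9%) lower than WT (median 0.05), near the 19.6% and 16.5% of all genes. In R50 cells 5 (7.94%) were higher and 14 (22.2%) lower (median −0.10), beside 12.2% and 15.6%. R50 against CDK2-/- gave 6 (9.52%) higher and 15 (23.8%) lower (median −0.12), beside 16.9% and 24.3%. R50 against WT+NU6102 gave 8 (12.7%) higher and 35 (55.6%) lower (median −0.33), beside 26.1% and 34.1%. In this last comparison 4 were lower and 2 higher at 2-fold or more, where 3.4% of all genes were lower and 8.42% higher at that size. DNAJC2, a ribosome-bound J-domain protein, was lower by 1.34 (SE 0.05), CDC37L1, a relative of CDC37, by 1.11 (SE 0.08), PPID, an HSP90-binding cyclophilin, by 1.05 (SE 0.07) and CLPB, a mitochondrial disaggregase, by 1.01 (SE 0.05). HSPA2, the testis-enriched HSP70, was higher by 1.49 (SE 0.12) and CCT6B, the testis-enriched TRiC subunit, by 1.37 (SE 0.08).

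HSPA2 fell with acute NU6102, by 1.12 against WT (adjusted p = 0.000972), as did CCT6B, by 0.93 (adjusted p = 0.000497), and both lay opposite in sign to their relatives HSPA1B and CCT6A. HSPA5, or BiP, the HSP70 of the endoplasmic reticulum, fell as well, by 0.38 (adjusted p = 0.0040), while its partners DNAJC3 and DNAJB11 rose. In CDK2-/- cells HSPA5 was 0.32 above WT (adjusted p = 0.012) and both partners were below it. HSPA5 was chosen for mention after its values were seen.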

How the data were processed

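RNA of 4 groups of HCT-116 cells, 2 biological replicates each, was labelled with Cy3 and hybridized to Agilent SurePrint G3 arrays. The authors deposited, per spot, a background-subtracted intensity from Agilent Feature Extraction 11.5.1.1, without normalization between arrays, and a table of log2 values made with GeneSpring GX, centred on each probe's median and used here as an alternative. Control and outlier spots were left out, log2 intensity was centred on each array's 75th percentile, and the spots of a probe were averaged. A probe was above background where at least 50% of its spots were, and was tested if so on both arrays of at least 1 group. Fits used limma 3.58.1 in R 4.3.3, two-sided, with all 8 arrays. On simulated data they called 25.8% (R50 against WT) to 39.4% (WT+NU6102 against WT) of probes given a log2 change of 0.5. Few of the 28677 probes were changed there, far fewer than were called on the real arrays. The adjustment of p was therefore stricter in the simulation, and its rates do not carry over to the members. With 2 arrays per group, a member not called is still not shown to be unchanged. Gene names are the files' own, matched to RefSeq symbols. Members were described array by array if HSF1, HSF2 or among the 6 members called with the largest change in a comparison. The members, lists and tests were chosen with earlier results of these data known. Positions come from the WT and WT+NU6102 files (hg19), and exon and UTR annotation of that build was not used here. Replicate numbers did not pair the arrays. The 2 arrays per group limit the precision of every value.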

Additional observations from a re-analysis of the deposited data

How the results depend on the processing

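The alternatives were normexp background correction, quantile normalization, keeping every dim probe or only probes above background on all 8 arrays, the authors' values, a trended prior variance, a replicate block, the methods' one-way ANOVA, slide 1 alone and leaving out each array. Of 61 called values of the 19 members described array by array, 0 changed sign in the 15 of these settings in which they were refitted, the ANOVA and slide 1 alone having been run only for counts. The number that stayed past the threshold was 59 with normexp, 55 with quantile normalization, 42 without a filter on dim probes, 61 with a filter on all 8 arrays, 60 on the authors' values, 61 with a trended prior, 59 with a replicate block and 49 to 56 with 1 array left out. Without a filter the calls lost were those of HSF2, HSPB8 and BAG1 for WT+NU6102 against WT, of DNAJC3, DNAJA2, HSPB8, HSP90AB1 and BAG1 for CDK2-/- against WT, of the described members other than BAG2 and HSP90AB1 for R50 against WT, of HSPA4L, CHORDC1 and HSPA8 for R50 against CDK2-/- and of HSF2 for R50 against WT+NU6102.

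Without a filter on dim probes those called of the same 48 members were 9 for CDK2-/- against WT, 2 for R50 against WT and 9 for R50 against CDK2-/-, and 0 differed in the F-test (the cause was not tested). HSPA1A, which only that setting tested, is not in these counts and passed in all 3 comparisons (adjusted p = 0.015, 0.0039 and 0.0071). For the F-test the count was 42 with a trended prior, 4 with a replicate block and 12 by the methods' one-way ANOVA. Slide 1 alone gave 10 for R50 against CDK2-/-. With 1 array left out the counts ran from 29 to 34 for WT+NU6102 against WT, 9 to 20 for CDK2-/- against WT, 4 to 19 for R50 against WT, 9 to 16 for R50 against CDK2-/-, 40 to 42 for R50 against WT+NU6102 and 0 to 2 for the F-test. Where this left 1 array in a group, that array was assumed to vary like the other groups.

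The arrays share only a replicate number, since the difference of replicates 1 and 2 correlated between groups with r from −0.03 to 0.05 over probes. With a replicate block the counts were 35, 20, 20, 16 and 42 in the order of the comparisons just given, and the calls of HSPB8 for WT+NU6102 against WT (adjusted p = 0.053) and of DNAJB2 for R50 against WT (adjusted p = 0.062) were lost. Signal over background limits HSPA1A, HSPB8 and CCT5 most.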
